A study of Mus musculus with 15 samples.

Results

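The 36 mouse genes described here encode the enzymes of the citric acid cycle, the pyruvate dehydrogenase complex with its kinases and phosphatases, the carriers that move pyruvate, citrate and dicarboxylates across the inner mitochondrial membrane, and the enzymes that add or withdraw oxaloacetate. They were chosen by symbol from the 26301 gene numbers counted, by a rule on gene function that uses no measured value, though with earlier results of these data known. All 36 were found, and 34 of them had enough reads to be tested. The citric acid cycle oxidises acetyl-CoA to carbon dioxide and passes the electrons to the respiratory chain. In fat cells it also has a biosynthetic role, since citrate leaves the mitochondria and supplies cytosolic acetyl-CoA for fatty acid synthesis, while pyruvate carboxylase refills oxaloacetate. Pyruvate enters through the mitochondrial pyruvate carrier, and its oxidation is switched off by pyruvate dehydrogenase kinases and on by phosphatases.

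The cells were 3T3-L1, a mouse preadipocyte line that becomes adipocytes on hormonal induction, and all were taken on day 2 after induction with 1.67 µM insulin, 1 µM dexamethasone and 115 µg/mL IBMX. Control (sh-Empty) cells carried a retrovirus without a short hairpin RNA, and JMJD1A-KD (sh-Jmjd1a) cells carried one with a hairpin against Jmjd1a, the gene of the H3K9 demethylase JMJD1A (symbol Kdm3a). The 3 rescue groups all carried the same sh-Jmjd1a hairpin and in addition expressed from another retrovirus either LacZ, a bacterial β-galactosidase used as the control, or a JMJD1A made resistant to the hairpin. That JMJD1A was the wild type, written JMJD1A(WT), or carried a mutation at the site that coordinates iron, written JMJD1A(H1122A) and given in the labels as Mut. Each group was a virus-infected and antibiotic-selected line with 3 libraries, 15 in all. The labels do not say whether the 3 libraries came from separate cultures, so the p-values measure only the spread between these libraries.

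Total counts ranged from 11437058 to 25523148 per library with a median of 12916162, the highest being JMJD1A(WT) replicate 3. The unit of the levels is CPM, in which each count is scaled by its library's TMM-adjusted total. The adjustment was made separately for the knockdown and the rescue set, and a level is therefore set only against others of its own set. Kdm3a had 171, 174 and 185 CPM in control cells and 129, 128 and 138 CPM in JMJD1A-KD cells, and it rose from between 116 and 122 CPM with LacZ to between 1640 and 1770 CPM with JMJD1A(WT) and between 2100 and 2290 CPM with JMJD1A(H1122A). The mutant was thus at a higher transcript level than the wild type (log2 fold change 0.38 ± 0.034 SE, adjusted p = 3.94e-12). Of 10 adipocyte markers, Adipoq, Fabp4, Pparg, Cebpa, Plin1, Lpl, Cd36, Cidec, Cfd and Retn, 10 fell on knockdown, 10 rose with JMJD1A(WT) and 10 were lower with the mutant than with the wild type, and 9 were lower with the mutant than with LacZ. Of all genes tested, 23.9% fell and 22.3% rose on knockdown, and 4.98% rose with JMJD1A(WT). With the mutant, 11.7% of all genes were lower than with the wild type and 4.46% lower than with LacZ. Fabp4, Pparg, Cebpa, Cidec and Retn are among the target genes that the study chose on these samples, so their directions are not independent evidence. The summed level of the 10 adipocyte markers was 5270 to 5360 CPM in control cells, 2680 to 2830 in JMJD1A-KD cells, 3400 to 3470 with LacZ, 3900 to 4270 with JMJD1A(WT) and 2610 to 2720 with JMJD1A(H1122A). Of 8 preadipocyte and fibroblast markers, Dlk1, Pdgfra, Pdgfrb, Thy1, Cd34, Ly6a, Col1a1 and Col3a1, 2 fell on knockdown, Dlk1 (-0.76 ± 0.041) and Ly6a (-0.41 ± 0.12), and 4 rose, led by Col1a1 (1.42 ± 0.035). With JMJD1A(WT), 4 rose, among them Ly6a (1.24 ± 0.10) and Dlk1 (0.43 ± 0.036). These counts stand beside the shares of all genes given above, and Cd34 was not tested on knockdown. The summed level of the 8 was 7620 to 7750 CPM in control cells, 12900 to 13600 in JMJD1A-KD cells, 15700 to 15900 with LacZ, 16600 to 17300 with JMJD1A(WT) and 15100 to 15900 with JMJD1A(H1122A). Markers of muscle were at 0 in every library, and the summed levels of macrophage, endothelial and epithelial markers stayed at or below 4.05, 0.656 and 0.283 CPM. The part of the adipocyte and fibroblast markers in the results below was not tested.

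First, the levels of the 36 genes were compared with each other per length, as CPM per kilobase of merged exon (CPM/kb). In control cells Idh1, the cytosolic NADP-dependent isocitrate dehydrogenase, was the most abundant at 291 ± 4.28 CPM/kb (SD, n = 3). It was followed by Pcx, pyruvate carboxylase, at 245 ± 3.85, and Mdh2, the mitochondrial malate dehydrogenase, at 185 ± 3.14 CPM/kb. By this measure these 3 genes were in the same order in all 5 groups. In JMJD1A-KD cells, however, Pcx at 134 ± 2.05 and Mdh2 at 127 ± 7.43 CPM/kb did not differ beyond the SD of Mdh2. The order of the genes also depends on the length used. The merged exons of Mdh2 hold 2089 bases and its longest coding transcript 1456, against 4272 and 4148 for Pcx and 2530 and 2302 for Idh1. Citrate synthase, Cs, came next at 101 ± 3.05 CPM/kb in control cells, and the lowest tested members were Pdk2 at 4.75 ± 0.453 and the phosphatase Pdp2 at 2.51 ± 0.200 CPM/kb. Together the 36 genes held 0.580% to 0.587% of the counts in control cells and 0.434% to 0.445% in JMJD1A-KD cells. In the rescue set they held 0.452% to 0.463% with LacZ, 0.486% to 0.509% with JMJD1A(WT) and 0.434% to 0.444% with JMJD1A(H1122A). None of the 3 rescue groups overlapped with another in this share, JMJD1A(WT) being the highest and JMJD1A(H1122A) the lowest. The share is a sum of counts and weighs abundant genes such as Pcx and Idh1 most. Between JMJD1A(WT) and LacZ, 28 of the 34 tested members were not called, and no such share was computed for other sets of genes.

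Next, JMJD1A-KD cells were compared with control cells to see which genes of the cycle differ when Jmjd1a is knocked down. Of the 34 genes tested, 26 fell and 6 rose, beside 23.9% of all 12272 genes tested that fell, 22.3% that rose and 46.2% that did either (edgeR's quasi-likelihood test, adjusted p under 0.05). The median log2 fold change of the members was -0.342, against -0.003 over all genes tested. The largest falls were those of Pdk2, Suclg1, Mpc1 and Idh3a, and the largest rises those of Pck2, Pdk4 and Pdp1. The genes that did not pass the test were Idh3g and Pdp2. Control and JMJD1A-KD libraries did not overlap for 33 of the 34 genes, as for 53% of all genes tested. In such bulk libraries, fewer cells of a type and less RNA per cell cannot be told apart. Each group was also a selected line of its own, so the knockdown cannot be told apart from other differences between the lines.

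**Figure D1:**
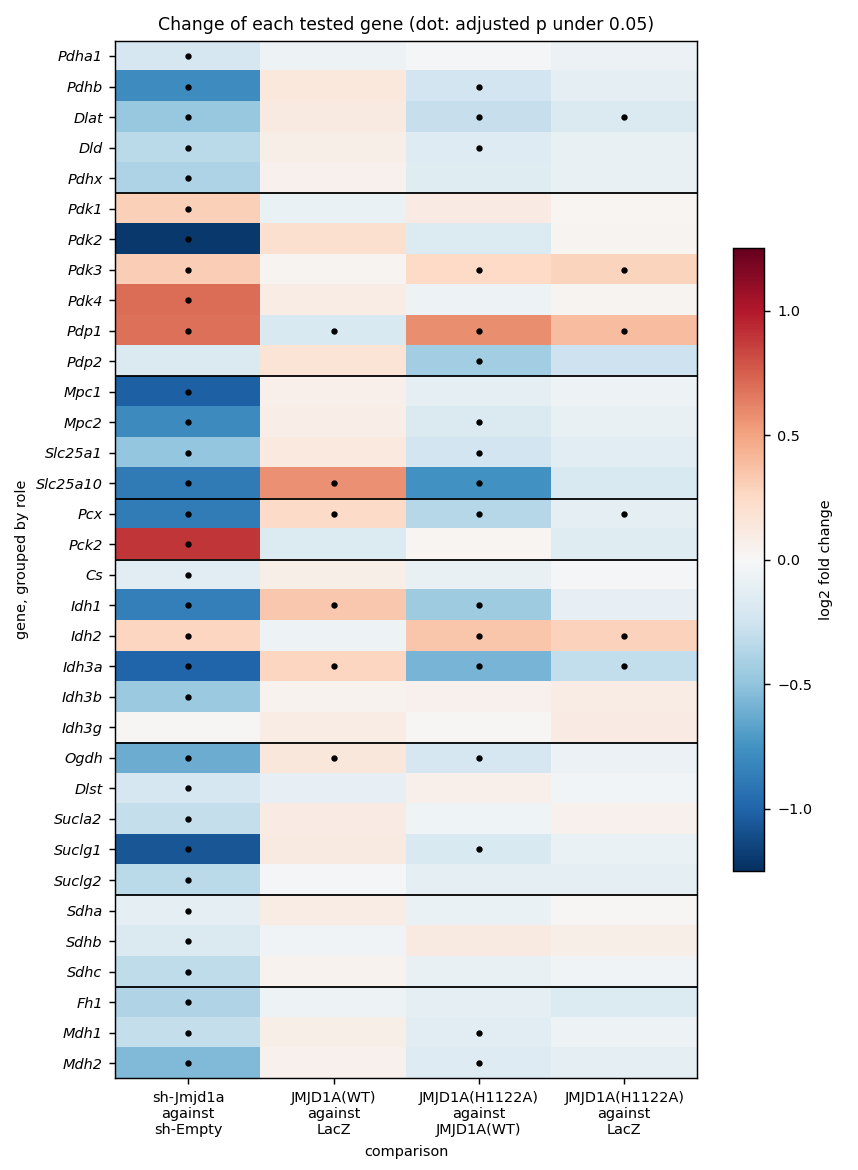
Log2 fold change of the 34 tested genes (rows, grouped by role) in the 4 comparisons (columns), blue for lower and red for higher, with a dot where the adjusted p was under 0.05. The first column is mostly blue (26 lower, 6 higher), while the JMJD1A(WT) column has 6 dots.

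When JMJD1A(WT) was returned, 5 of the 34 members rose and 1 fell, beside 4.98% and 4.52% of the 12557 genes tested with these libraries (9.5% in either direction). Slc25a10, Idh1, Idh3a, Pcx and Ogdh rose, all of which had fallen on knockdown, and Pdp1 fell, which had risen on knockdown. These 2 comparisons share no library, but 26 of the 34 members had fallen on knockdown, so members that rise would mostly be ones that had fallen. The share of all genes with opposite calls in both comparisons was not computed, and the match is given as a description only. The study's target genes were those lower on knockdown, higher with JMJD1A(WT) and lower with the mutant than with JMJD1A(WT) in these samples. It reported the TCA cycle among the pathways enriched in them. Its printed list holds only part of them, so absence from it decides nothing. Slc25a10, Idh1 and Idh3a showed these 3 directions here too, so their directions are not taken as independent evidence. The other 28 genes were not called, with a median log2 fold change of 0.072 over all 34 against 0 over all genes tested, and the libraries of JMJD1A(WT) and LacZ did not overlap for 13 members (22.9% of all genes). With JMJD1A(H1122A), 14 members were lower and 3 higher than with JMJD1A(WT), beside 11.7% and 12.1% of all genes tested (23.8% in either direction). The 14 were Pdhb, Dlat, Dld, Pdp2, Mpc2, Slc25a1, Slc25a10, Pcx, Idh1, Idh3a, Ogdh, Suclg1, Mdh1 and Mdh2, and the 3 were Pdp1, Idh2 and Pdk3. The median log2 fold change of the members was -0.12, against -0.001 over all genes, and the libraries did not overlap for 20 members (37.1% of all genes). The mutant was also set beside LacZ, and here Idh3a, Dlat and Pcx, 3 members, were lower and Pdp1, Idh2 and Pdk3, also 3, were higher, beside 4.46% and 4.78% of all genes tested (9.24% in either direction). These libraries did not overlap for 13 members (25.1% of all genes). The 3 rescue comparisons share libraries and are therefore given side by side, without a count of what they have in common.

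The windows around the starts of the genes with the largest falls are shown so that their sequence can be read beside their values. The 4 genes were Pdk2, Suclg1, Mpc1 and Idh3a, and the RefSeq table of promoters (GRCm38.p6, 250 bases before to 50 after a start, first window listed for each gene) held 33 of the 36 members, without Idh3a, Pdp1 and Sdhc. The window of Pdk2 was chr11:95041322-95041621 on the minus strand, that of Suclg1 chr6:73248255-73248554 on the plus strand and that of Mpc1 chr17:8283537-8283836 on the plus strand. Each is written 5′ to 3′ along the gene's strand, and capitals mark matches to the motifs searched.
Pdk2: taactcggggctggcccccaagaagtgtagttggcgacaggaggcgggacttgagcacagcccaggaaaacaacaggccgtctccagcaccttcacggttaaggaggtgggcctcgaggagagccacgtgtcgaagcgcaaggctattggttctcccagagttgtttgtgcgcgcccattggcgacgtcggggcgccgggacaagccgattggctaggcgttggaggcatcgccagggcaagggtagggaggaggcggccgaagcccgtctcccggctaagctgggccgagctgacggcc
Suclg1: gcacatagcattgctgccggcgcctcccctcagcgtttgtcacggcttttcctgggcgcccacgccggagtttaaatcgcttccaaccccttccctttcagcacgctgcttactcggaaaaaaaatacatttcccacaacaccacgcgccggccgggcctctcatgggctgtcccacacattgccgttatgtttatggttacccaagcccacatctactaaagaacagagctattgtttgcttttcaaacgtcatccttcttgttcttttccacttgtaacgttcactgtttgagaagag
Mpc1: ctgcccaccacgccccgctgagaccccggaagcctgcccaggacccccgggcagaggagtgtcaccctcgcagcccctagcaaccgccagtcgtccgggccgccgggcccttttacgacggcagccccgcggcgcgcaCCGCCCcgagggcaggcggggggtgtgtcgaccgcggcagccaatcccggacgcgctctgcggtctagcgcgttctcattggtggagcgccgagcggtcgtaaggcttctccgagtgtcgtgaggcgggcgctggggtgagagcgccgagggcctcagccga
Of 8 motifs searched on both strands, the only match in these windows was 1 GC box (GGGCGG) of Mpc1, read as CCGCCC from position -112 to the start. The nuclear receptor motif AAAGGTCA was in 0 of the 33 member windows and in 1.46% of all 27025 windows, and the ERR motif TCAAGGTCA, which shares AAGGTCA with it, was in 1 member window, that of Sdhd, and in 0.407% of all. The CRE TGACGTCA was in 2 member windows, those of Mdh2 and Ogdh, and in 1.88% of all, its variant TTACGTCA, which shares ACGTCA with it, in 1, that of Pck1, and in 0.533% of all, and the NRF1 motif GCGCATGC in 1, that of Sdhb, and in 2.8% of all. The C/EBP core TTGCNNAA was in 4 member windows, those of Dld, Mpc2, Pdhb and Sdha, a share of 12.1% against 10.8% of all. The GC box was in 25 member windows, 75.8% against 35.9% of all, and the TATA box TATAAA in 0 against 14.2% of all. The median GC content of the member windows was 62.0%, ranging from 47% to 73.7%, against 52.7% over all windows of the table. A match is a description of the letters only.

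The entry of pyruvate was examined first. Mpc1 and Mpc2 encode the subunits of the mitochondrial pyruvate carrier. Mpc1 (chr17:8475769-8490526 in mm9) had 56.1, 51.5 and 56.1 CPM in control cells and 26.4, 28.5 and 26 CPM in JMJD1A-KD cells, and it fell by 50.7% (log2 fold change -1.02 ± 0.075 SE, adjusted p = 4.55e-12). In the rescue set it had 22.1, 31.1 and 32 CPM with LacZ, 28.4, 35.3 and 26.7 CPM with JMJD1A(WT) and 24.3, 29.5 and 27.3 CPM with JMJD1A(H1122A). All of the rescue groups overlapped, and none of the differences passed the test, the spread of LacZ being the widest. The counts of this gene are uncertain, since 750 bases of its transcript (74.8%) have a copy elsewhere in mm9 at 100% identity, and 23.01% of its merged exons lie across a long non-coding RNA on the opposite strand. The study's methods name a directional library kit and the labels one not named so, and whether strand was used in counting is not given in the sources used here. Mpc2 had 169, 158 and 173 CPM in control cells and 99.9, 99.1 and 88.3 CPM in JMJD1A-KD cells, and it fell by 42.6% (-0.80 ± 0.054, adjusted p = 6.04e-13). It had 71.8, 82.6 and 85.7 CPM with LacZ, 84.6, 91.8 and 79.7 CPM with JMJD1A(WT) and 73.1, 72.2 and 79.9 CPM with JMJD1A(H1122A). The difference between the mutant and the wild type was -0.18 ± 0.063 (adjusted p = 0.0352) although the groups overlapped, and it lost the call without JMJD1A(H1122A) replicate 1 (adjusted p = 0.13) or 2 (0.158), without JMJD1A(WT) replicate 1 (0.081) or 2 (0.179), and with DESeq2 (0.0761).

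Slc25a10, the dicarboxylate carrier that exchanges malate or succinate for phosphate, was the member that responded most to JMJD1A(WT). It had 114, 112 and 112 CPM in control cells and 63.8, 64.4 and 55.4 CPM in JMJD1A-KD cells, and it fell by 45.8% (-0.88 ± 0.059, adjusted p = 6.29e-13). With LacZ it had 63.8, 60 and 62 CPM, with JMJD1A(WT) 98.5, 93 and 86.8 CPM, and with JMJD1A(H1122A) 53.6, 52.7 and 57.5 CPM. The wild-type libraries lay above both other groups without overlap, with a rise of 48.8% over LacZ (0.57 ± 0.058, adjusted p = 2.3e-10). The mutant was lower than the wild type by 0.76 on the log2 scale (-0.76 ± 0.060, adjusted p = 6.84e-14), and its own difference from LacZ did not pass the test (-0.19 ± 0.065, adjusted p = 0.0624). Of the Slc25a10 exons, 6.6% lie across a transcript on the opposite strand. Slc25a1, the carrier that exports citrate to the cytosol, had 129, 129 and 128 CPM in control cells and 98.1, 95.3 and 83.8 CPM in JMJD1A-KD cells, a fall of 0.48 ± 0.055 on the log2 scale (adjusted p = 3.23e-08). With LacZ it had 99.7, 92.8 and 100 CPM, with JMJD1A(WT) 98.7, 112 and 107 CPM, and with JMJD1A(H1122A) 90.3, 86 and 92.1 CPM. The wild type overlapped with LacZ (0.12 ± 0.053, adjusted p = 0.18) and did not overlap with the mutant, which was lower (-0.24 ± 0.054, adjusted p = 0.000517).

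**Figure D2:**
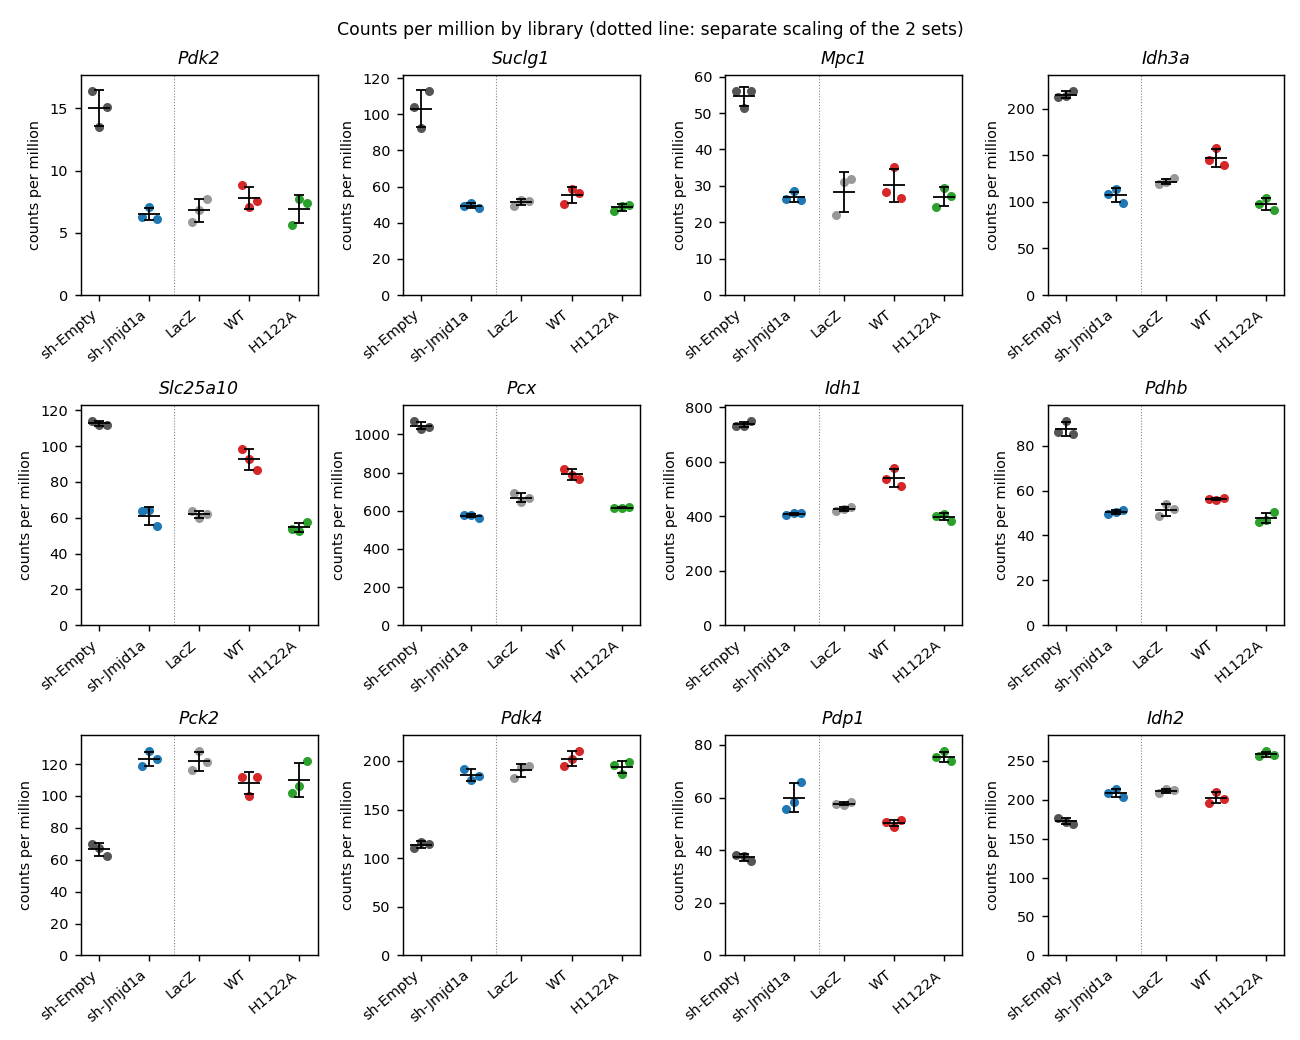
Level of 12 members in each of the 15 libraries, in CPM (points), with the group mean and SD (bars) and both sets apart at the dotted line. Slc25a10, Pcx, Idh1 and Idh3a rise with JMJD1A(WT), while for Pdk2, Suclg1 and Mpc1 the JMJD1A(WT) libraries overlap with those of LacZ.

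All 5 genes of the pyruvate dehydrogenase complex, which makes acetyl-CoA from pyruvate, fell on knockdown. Pdhb, the beta subunit of its first enzyme, had 86.2, 91 and 85.4 CPM in control cells and 49.5, 50.3 and 51.5 CPM in JMJD1A-KD cells, and it fell by 42.3% (-0.79 ± 0.060, adjusted p = 6.96e-12). It had 48.5, 54 and 51.7 CPM with LacZ, 56.3, 55.7 and 56.9 CPM with JMJD1A(WT) and 46, 46.9 and 50.3 CPM with JMJD1A(H1122A). The wild-type libraries lay above both other groups, yet the difference from LacZ did not pass the test (0.13 ± 0.063, adjusted p = 0.216), while that from the mutant did (-0.24 ± 0.065 for the mutant, adjusted p = 0.00452). A copy of 97.4% of the Pdhb transcript at 98% identity lies elsewhere in mm9, so its counts are uncertain to that extent. Dlat, the acetyltransferase core, had 96.6, 90.3 and 103 CPM in control cells and 73.5, 70.9 and 65.8 CPM in JMJD1A-KD cells, a fall of 0.47 ± 0.061 on the log2 scale (adjusted p = 2.56e-07). With LacZ it had 76, 75.6 and 70.6 CPM, with JMJD1A(WT) 79.4, 80.9 and 79.8 CPM, and with JMJD1A(H1122A) 65, 62.5 and 69.4 CPM. The 3 rescue groups did not overlap, and Dlat was lower with the mutant than with the wild type (-0.29 ± 0.058, adjusted p = 0.000133) and than with LacZ (-0.18 ± 0.059, adjusted p = 0.0471). The second call was lost without LacZ replicate 1 (adjusted p = 0.136) or 2 (0.142), without JMJD1A(H1122A) replicate 1 (0.15) or 2 (0.228), without JMJD1A(WT) replicate 1 (0.0581) or 3 (0.0536), with DESeq2 (0.0701) and under 3 further settings. Dld, the dihydrolipoyl dehydrogenase shared by several complexes, fell from 178 ± 1.39 to 141 ± 3.12 CPM (mean ± SD, n = 3). Pdhx, which tethers that enzyme to the core, fell from 52.7 ± 5.38 to 40.1 ± 2.45 CPM. Pdha1, the alpha subunit, changed least, from 272 ± 1.54 to 235 ± 5.55 CPM (-0.21 ± 0.041), and 15.98% of its merged exons lie across Map3k15 on the opposite strand.

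The regulators of the complex moved in both directions. The kinases phosphorylate and inactivate it, and of these Pdk2 fell on knockdown while Pdk1, Pdk3 and Pdk4 rose. Pdk2 (chr11:94887572-94902668 in mm9) had 16.4, 13.5 and 15.1 CPM in control cells and 6.28, 7.1 and 6.14 CPM in JMJD1A-KD cells, and it fell by 56.7% (-1.21 ± 0.14, adjusted p = 3.97e-08), the largest fall among the members. It had 5.86, 6.8 and 7.71 CPM with LacZ, 8.82, 7.11 and 7.54 CPM with JMJD1A(WT) and 5.64, 7.73 and 7.37 CPM with JMJD1A(H1122A), with every group overlapping the others. Pdk4, a kinase induced in fasting and by fatty acids, had 110, 117 and 115 CPM in control cells and 192, 180 and 185 CPM in JMJD1A-KD cells, a rise of 62.4% (0.70 ± 0.047, adjusted p = 6.5e-13). It had 183, 194 and 195 CPM with LacZ, 195, 202 and 210 CPM with JMJD1A(WT) and 196, 187 and 199 CPM with JMJD1A(H1122A), and no rescue comparison passed the test. Pdk1, a kinase known to respond to hypoxia, rose from 117 ± 3.39 to 144 ± 3.94 CPM and Pdk3 from 27 ± 3.91 to 33.7 ± 3.16 CPM, the second with an adjusted p of 0.0101 that became 0.0945 without sh-Empty replicate 1 and 0.0503 without sh-Jmjd1a replicate 2. Pdk3 was higher with JMJD1A(H1122A), at 39.3 ± 1.91 CPM, than with JMJD1A(WT), at 33.2 ± 2.68 CPM (0.25 ± 0.082, adjusted p = 0.0205), or with LacZ, at 32.4 ± 3.9 CPM (0.28 ± 0.084, adjusted p = 0.0276). The first was lost without JMJD1A(H1122A) replicate 2 (adjusted p = 0.0519) or 3 (0.0997), without JMJD1A(WT) replicate 1 (0.0811) or 3 (0.111) and with DESeq2 (0.0652), and the second without LacZ replicate 1 (0.101) or 3 (0.177), without JMJD1A(H1122A) replicate 2 (0.0707) or 3 (0.129) and with DESeq2 (0.0607). Per length, Pdk2 made up 7.57% ± 0.949 of the 4 kinases in control cells and 2.38% ± 0.216 in JMJD1A-KD cells, while the share of Pdk4 went from 51.7% ± 0.153 to 61% ± 0.986. The size of these shares depends on the merged exon lengths, which for Pdk1 are 7779 bases against 5185 of its longest coding transcript.

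The phosphatases, which reactivate the complex, differed from each other. Pdp1 had 38.1, 37.8 and 35.9 CPM in control cells and 55.5, 58.2 and 66 CPM in JMJD1A-KD cells, a rise of 61.5% (0.69 ± 0.074, adjusted p = 7.78e-09). With LacZ it had 57.6, 57.3 and 58.3 CPM, with JMJD1A(WT) 50.8, 49 and 51.3 CPM, and with JMJD1A(H1122A) 75.4, 77.6 and 73.8 CPM. The 3 rescue groups did not overlap. Pdp1 was lower with the wild type than with LacZ (-0.19 ± 0.060, adjusted p = 0.0323), a call lost on leaving out any one of the LacZ or JMJD1A(WT) libraries (adjusted p = 0.0608, 0.0682 and 0.105 without LacZ replicates 1, 2 and 3, and 0.0654, 0.0883 and 0.0623 without JMJD1A(WT) replicates 1, 2 and 3) and with DESeq2 (0.0522). It was higher with the mutant than with the wild type (0.58 ± 0.059, adjusted p = 8.3e-11) and than with LacZ (0.39 ± 0.059, adjusted p = 5.24e-06). Pdp2 had 8.76 ± 0.697 CPM in control and 7.69 ± 0.441 CPM in JMJD1A-KD cells and did not pass the test (-0.18 ± 0.15). It was lower with the mutant, at 6.35 ± 0.825 CPM, than with the wild type, at 8.47 ± 0.525 CPM (-0.43 ± 0.16, adjusted p = 0.0374). That call was lost without JMJD1A(H1122A) replicate 1 (adjusted p = 0.165) or 2 (0.13), without JMJD1A(WT) replicate 2 (0.0677) or 3 (0.138), with DESeq2 (0.0991) and with no filter on low counts (0.0516).

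Oxaloacetate is supplied by pyruvate carboxylase, Pcx, and drawn off by the phosphoenolpyruvate carboxykinases, Pck1 in the cytosol and Pck2 in mitochondria. Pcx (chr19:4510472-4621752 in mm9) had 1070, 1030 and 1040 CPM in control cells and 580, 578 and 564 CPM in JMJD1A-KD cells, and it fell by 45.2% (-0.87 ± 0.036, adjusted p = 1.38e-17). It had 691, 645 and 668 CPM with LacZ, 820, 788 and 764 CPM with JMJD1A(WT) and 615, 613 and 620 CPM with JMJD1A(H1122A). No group of the rescue set overlapped with another: Pcx rose by 18.3% with the wild type (0.24 ± 0.035, adjusted p = 1.27e-06), and with the mutant it was lower than with the wild type (-0.36 ± 0.036, adjusted p = 4.09e-11) and than with LacZ (-0.12 ± 0.036, adjusted p = 0.0288). The last of these was lost without LacZ replicate 1 (adjusted p = 0.138) or 3 (0.0999) and without JMJD1A(H1122A) replicate 1 (0.107) or 2 (0.0909). Pcx is on the list of target genes that the study chose on these samples, so its direction is not independent evidence. Pck2 had 70, 67.5 and 62.1 CPM in control cells and 119, 128 and 123 CPM in JMJD1A-KD cells, a rise of 85.8% (0.89 ± 0.057, adjusted p = 1.87e-13) and the largest among the members. With LacZ it had 116, 128 and 121 CPM, with JMJD1A(WT) 112, 100 and 112 CPM, and with JMJD1A(H1122A) 102, 106 and 122 CPM. The wild-type libraries lay below those of LacZ, and the difference missed the threshold (-0.17 ± 0.056, adjusted p = 0.0531), which it passed without LacZ replicate 1 (adjusted p = 0.0213), without JMJD1A(H1122A) replicate 1 (0.0481) or 3 (0.0267) and under 5 other settings. Against LacZ the mutant was not called either (-0.15 ± 0.058, adjusted p = 0.116), except without its replicate 3 (0.0122). Pck1 was not tested: it had 2, 0 and 16 counts in control libraries, 1, 0 and 0 in JMJD1A-KD libraries and 0 in all 9 rescue libraries.

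Citrate synthase condenses acetyl-CoA with oxaloacetate. Cs fell from 284 ± 8.63 to 260 ± 2.42 CPM (-0.13 ± 0.041, adjusted p = 0.0122), a call lost without sh-Empty replicate 1 (adjusted p = 0.0929) or 2 (0.0804). The isocitrate dehydrogenases differed from each other. Idh3a, the catalytic subunit of the NAD-dependent enzyme (chr9:54434288-54452468 in mm9), had 212, 213 and 219 CPM in control cells and 108, 114 and 99.1 CPM in JMJD1A-KD cells, and it fell by 50.1% (-1.0 ± 0.050, adjusted p = 7.57e-16). It had 119, 121 and 125 CPM with LacZ, 145, 158 and 139 CPM with JMJD1A(WT) and 98, 104 and 91.5 CPM with JMJD1A(H1122A). The 3 rescue groups did not overlap, with a rise of 20.8% on return of the wild type (0.27 ± 0.050, adjusted p = 0.000104). With the mutant Idh3a was lower than with the wild type (-0.58 ± 0.053, adjusted p = 2.79e-12) and than with LacZ (-0.31 ± 0.054, adjusted p = 5.82e-05). The other subunits of the same enzyme moved less: Idh3b fell from 98.8 ± 1.46 to 71.7 ± 2.88 CPM (-0.46 ± 0.055), and Idh3g had 71.5 ± 2.95 and 72.1 ± 0.818 CPM (0.01 ± 0.058, adjusted p = 0.901). Neither passed the test in any rescue comparison.

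Idh1, which makes cytosolic NADPH, had 730, 731 and 749 CPM in control cells and 405, 410 and 411 CPM in JMJD1A-KD cells, and it fell by 44.6% (-0.85 ± 0.037, adjusted p = 4.04e-17). It had 419, 426 and 432 CPM with LacZ, 538, 575 and 510 CPM with JMJD1A(WT) and 402, 409 and 384 CPM with JMJD1A(H1122A). The wild-type libraries lay above both other groups, by 26.9% over LacZ (0.34 ± 0.039, adjusted p = 5.35e-09), and Idh1 was lower with the mutant than with the wild type (-0.44 ± 0.040, adjusted p = 2.77e-12). Its mitochondrial counterpart Idh2 went the other way. It rose on knockdown from 172 ± 3.94 to 208 ± 4.93 CPM (0.27 ± 0.043, adjusted p = 7.47e-06). It had 211 ± 2.73 CPM with LacZ, 202 ± 7.27 CPM with JMJD1A(WT) (-0.06 ± 0.041, adjusted p = 0.448) and 259 ± 3.32 CPM with JMJD1A(H1122A), which was higher than both (0.35 ± 0.041 against the wild type, adjusted p = 2.25e-09, and 0.29 ± 0.041 against LacZ, adjusted p = 9.2e-07).

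These unequal changes were then expressed as ratios of counts per kilobase within each library, which do not depend on the scaling of the libraries. The ratios and their pairs of genes were added after the data were seen. A separation of groups by a ratio is therefore not independent of the changes of its genes given above. The ratio of Idh3a to Idh3g was 3.06, 3.34 and 3.22 in control libraries and 1.62, 1.67 and 1.48 in JMJD1A-KD libraries. It was 1.94, 1.84 and 1.85 with LacZ, 2.18, 2.1 and 2.08 with JMJD1A(WT) and 1.46, 1.43 and 1.32 with JMJD1A(H1122A), so the groups of each set stood apart without overlap. The ratio of Idh2 to Idh1 was 0.237, 0.229 and 0.221 in control and 0.504, 0.507 and 0.482 in JMJD1A-KD libraries. With LacZ it was 0.485, 0.489 and 0.48, with JMJD1A(WT) 0.356, 0.357 and 0.386, and with JMJD1A(H1122A) 0.624, 0.628 and 0.655, again without overlap. The ratio of Pdhb to Pdha1, the subunits of one enzyme, was 0.818 ± 0.0276 in control and 0.545 ± 0.0206 in JMJD1A-KD libraries and 0.522 ± 0.0329, 0.595 ± 0.0167 and 0.51 ± 0.0361 with LacZ, JMJD1A(WT) and JMJD1A(H1122A) (mean ± SD, n = 3 each). The ratio of Suclg1 to Suclg2 was 0.852 ± 0.0856 in control and 0.519 ± 0.043 in JMJD1A-KD libraries, while the rescue groups, at 0.482 ± 0.00791, 0.517 ± 0.0449 and 0.498 ± 0.0502 in the same order, overlapped. The size of a ratio depends on the lengths used, while its fold difference between groups does not. The merged exons of Suclg1 hold 4617 bases and its longest coding transcript 1519, against 3392 and 3362 for Suclg2. Only differences between groups are therefore read from the ratios. Of 12 such ratios, control and JMJD1A-KD libraries did not overlap for 11, JMJD1A(WT) and LacZ for 6, the mutant and the wild type for 6, and the mutant and LacZ for 3. The levels of single genes did not overlap for 53%, 22.9%, 37.1% and 25.1% of all genes tested in the same comparisons, and no such share was computed for ratios of other gene pairs. With 3 libraries against 3, an exact two-sided permutation test cannot give a p below 0.1, so the ratios are given without a test.

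**Figure D3:**
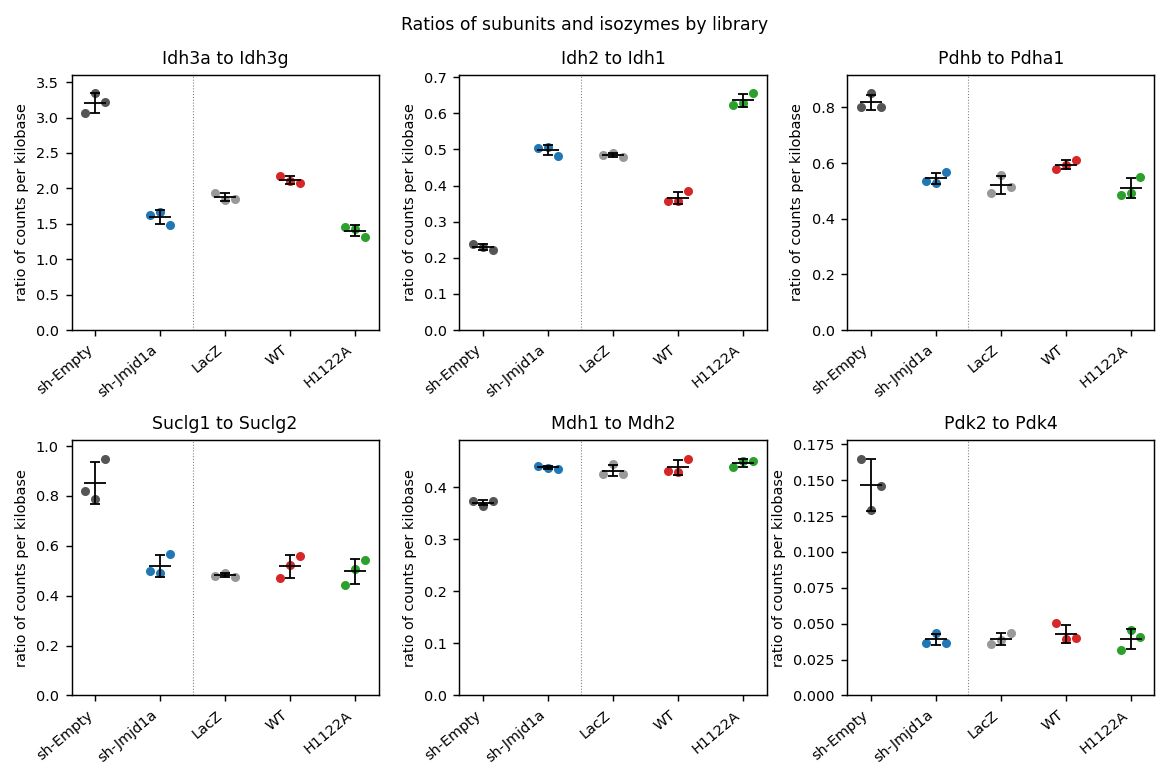
Ratio of counts per kilobase of 6 pairs of subunits or isozymes in each library (points), with the group mean and SD (bars). Idh3a to Idh3g and Idh2 to Idh1 separate all groups within each set, while Suclg1 to Suclg2 separates control from JMJD1A-KD cells and not the rescue groups.

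The oxidation of 2-oxoglutarate and the succinyl-CoA ligases came next. Ogdh, the first enzyme of the 2-oxoglutarate dehydrogenase complex, had 196, 197 and 185 CPM in control cells and 130, 126 and 121 CPM in JMJD1A-KD cells, and it fell by 34.8% (-0.62 ± 0.047, adjusted p = 8.26e-12). It had 133, 128 and 133 CPM with LacZ, 143, 149 and 142 CPM with JMJD1A(WT) and 125, 126 and 124 CPM with JMJD1A(H1122A). The wild-type libraries lay above the other groups, with a rise of 10% over LacZ at an adjusted p of 0.0418 (0.14 ± 0.045). This call was lost with DESeq2 (0.0641), with no filter on low counts (0.074) and with only the 2 groups compared in the fit (0.0533). It was also lost on leaving out any one of the LacZ libraries (adjusted p = 0.0661, 0.172 and 0.0834 for replicates 1 to 3) or of the JMJD1A(WT) libraries (0.0905, 0.139 and 0.0665), or JMJD1A(H1122A) replicate 1 (0.0545). Ogdh was lower with the mutant than with the wild type (-0.21 ± 0.046, adjusted p = 0.000453). Like Pcx, Ogdh is on the study's own list of target genes chosen on these samples. Dlst, the succinyltransferase of the complex, fell on knockdown from 204 ± 4.97 to 176 ± 4.46 CPM.

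Suclg1 (chr6:73198376-73226905 in mm9) encodes the alpha subunit that both succinyl-CoA ligases share. It had 104, 92.7 and 113 CPM in control cells and 49.3, 51.1 and 48.2 CPM in JMJD1A-KD cells, and it fell by 52.3% (-1.07 ± 0.067, adjusted p = 1.89e-13). It had 49.5, 52.7 and 52.2 CPM with LacZ, 50.3, 58.6 and 56.7 CPM with JMJD1A(WT) and 46.4, 49.1 and 50.1 CPM with JMJD1A(H1122A). The wild type overlapped with LacZ (0.11 ± 0.065, adjusted p = 0.387), and the mutant was below the wild type with no overlap (-0.19 ± 0.067, adjusted p = 0.0326). This last call was lost with DESeq2 (adjusted p = 0.0767) and without JMJD1A(H1122A) replicate 1 (0.16) or 2 (0.0683) or JMJD1A(WT) replicate 2 (0.112) or 3 (0.147). The beta subunits, Sucla2 for the ATP-forming and Suclg2 for the GTP-forming enzyme, fell less, from 56.6 ± 0.323 to 45.9 ± 2.99 CPM and from 89.2 ± 3.6 to 70.5 ± 7.34 CPM. A copy of 66.2% of the Suclg2 transcript at 98.9% identity lies elsewhere in mm9. Neither beta subunit passed the test in any rescue comparison.

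Succinate dehydrogenase, which also serves as complex II of the respiratory chain, moved little. Sdhc, one of its membrane anchors, fell from 132 ± 1.75 to 106 ± 3.25 CPM (-0.32 ± 0.049, adjusted p = 4.24e-06). Sdha, the flavoprotein, had 213 ± 1.13 and 198 ± 5.38 CPM in control and JMJD1A-KD cells (-0.11 ± 0.042, adjusted p = 0.04), and Sdhb, the iron-sulfur subunit, 62.2 ± 3.45 and 55.3 ± 4.73 CPM (-0.18 ± 0.069, adjusted p = 0.0363). Sdha lost its call without any of the 3 control libraries (adjusted p = 0.122, 0.101 and 0.115) or without sh-Jmjd1a replicate 1 (0.0987) or 2 (0.152), and Sdhb on leaving out sh-Empty replicate 1 (0.087) or 3 (0.203) or, from the other group, sh-Jmjd1a replicate 3 (0.239). With DESeq2 neither was called (0.1 and 0.133), and Sdha was not called with RLE size factors (0.0559), with no filter on low counts (0.076) or with all 15 libraries in one fit (0.0591) either. None of the 3 passed the test in the rescue set. The other membrane anchor, Sdhd, was not tested, as it had 0, 1 and 2 counts in control libraries, 1, 1 and 0 with JMJD1A(WT) and 0 in the other 9. It has no copy and no exon overlap with another gene in the annotation used here, and why it was counted so low was not tested.

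Fumarase and the malate dehydrogenases close the cycle. Mdh2 had 387, 381 and 394 CPM in control cells and 268, 279 and 248 CPM in JMJD1A-KD cells, and it fell by 31.5% (-0.55 ± 0.043, adjusted p = 2.2e-11). With LacZ it had 268, 274 and 287 CPM, with JMJD1A(WT) 287, 296 and 275 CPM, and with JMJD1A(H1122A) 245, 253 and 269 CPM. The wild type overlapped with LacZ. The mutant was lower than the wild type (-0.16 ± 0.042, adjusted p = 0.00406) except without JMJD1A(H1122A) replicate 1 (adjusted p = 0.0607), and its difference from LacZ (-0.11 ± 0.042, adjusted p = 0.097) passed without JMJD1A(H1122A) replicate 3 (0.0368). Fh1, fumarase, fell on knockdown from 93.9 ± 1.46 to 72.3 ± 4.51 CPM. Its difference between the mutant and LacZ did not pass the test (-0.17 ± 0.059, adjusted p = 0.0583) and passed without LacZ replicate 1 (0.0217). On knockdown the cytosolic Mdh1 fell from 176 ± 5.25 to 143 ± 8.76 CPM. Mdh1 was lower with the mutant than with the wild type by 0.13 on the log2 scale (-0.13 ± 0.047, adjusted p = 0.0364), a call lost with DESeq2 (adjusted p = 0.0646) and without any one of JMJD1A(H1122A) replicates 1 and 2 (0.277 and 0.0892) and the 3 JMJD1A(WT) libraries (0.0718, 0.0778 and 0.0887).

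To see how far the return of JMJD1A(WT) mirrored the knockdown, the log2 changes of both comparisons were added in one fit of all 15 libraries, a sum that is 0 where the rise on return equals the fall on knockdown. This test was added after the data were seen. The sum was below 0 for 22 of the 34 genes and above 0 for 6, beside 15.7% and 17% of the 12758 genes tested. With JMJD1A(WT), 28 of the 34 were not called, and the median change was 0.072, beside -0.342 on knockdown. The sums therefore largely restate the knockdown changes and cannot tell an incomplete return from no response. For Slc25a10 it was -0.30 ± 0.084 (adjusted p = 0.00451) and for Idh1 -0.50 ± 0.054 (adjusted p = 2.53e-10), so that both rose by less than they had fallen. Suclg1, at -0.95 ± 0.095, Pdk2, at -1.0 ± 0.22, and Mpc1, at -0.95 ± 0.16, had sums below 0 as well, beside knockdown changes of -1.07, -1.21 and -1.02. Pck2, at 0.74 ± 0.084, Pdk4, at 0.80 ± 0.063, and Pdp1, at 0.51 ± 0.093, were above 0. Pdp2, Cs, Idh3g, Sucla2, Sdha and Sdhb did not differ from 0 by this test, with sums from -0.21 ± 0.097 for Sdhb to 0.12 ± 0.084 for Idh3g. The rescue lines differed from the knockdown set also in carrying another retrovirus and, with JMJD1A(WT), in a Kdm3a level far above that with LacZ.

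**Figure D4:**
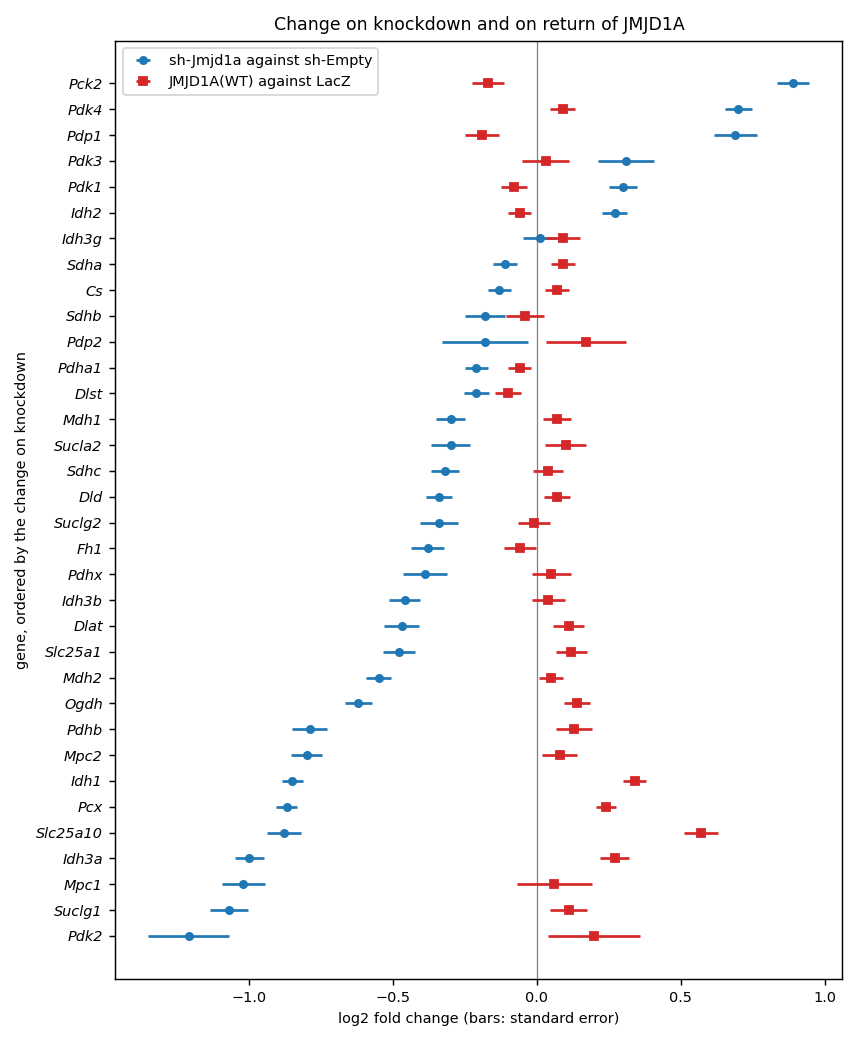
Log2 fold change with its standard error for the 34 tested genes, on knockdown (blue circles) and on return of JMJD1A(WT) (red squares), ordered by the change on knockdown. The red squares lie between -0.19 and 0.57, much nearer to 0 than most blue circles, and 6 of them passed the test.

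Finally, 43 other genes of linked pathways were listed in 4 groups and taken from the same fits. Of 8 tested genes that interconvert or use citrate, 6 fell on knockdown and 2 were not called. Of 13 genes linking the cycle to amino acids and shuttles, 6 fell and 2 rose. Of 12 genes of lipoate synthesis, assembly and regulation, 5 fell and 7 were not called, and of 6 genes of lactate and ketone use, 4 fell and 1 rose. Beside these counts, 23.9% of all genes tested fell on knockdown and 22.3% rose. The largest falls were those of Ldhb, a lactate dehydrogenase subunit (-1.53 ± 0.059), Acly, ATP-citrate lyase, which makes cytosolic acetyl-CoA from exported citrate (-1.52 ± 0.042), Dhtkd1, a paralog of Ogdh (-1.12 ± 0.22), and the cytosolic aconitase Aco1 (-0.94 ± 0.047). The genes that rose were the transaminases Gpt2 (0.49 ± 0.067) and Got1 (0.23 ± 0.074) and the monocarboxylate carrier Slc16a1 (0.49 ± 0.048). With JMJD1A(WT), Aco1 rose (0.18 ± 0.049, adjusted p = 0.0133) and no other of these genes was called, and Aco1 too is on the study's own list. Of all genes tested, 4.98% rose and 4.52% fell with JMJD1A(WT). The mutant was lower than the wild type for 6 of the genes of these 4 groups, among them the methylmalonyl-CoA mutase Mmut (-0.35 ± 0.070), Aco1 (-0.28 ± 0.050) and the glutamate carrier Slc25a22 (-0.26 ± 0.080), and higher for 3, Got1 (0.25 ± 0.069), Ldhb (0.25 ± 0.070) and the aspartate-glutamate carrier Slc25a12 (0.15 ± 0.054). In that comparison 11.7% of all genes tested were lower and 12.1% higher. Against LacZ the mutant was lower for 2 of the genes linking the cycle to amino acids and shuttles, among them Slc25a22 (-0.26 ± 0.082). It was also lower for 1 gene of lactate and ketone use, Slc16a1 (-0.13 ± 0.042), beside 4.46% of all genes tested that were lower.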

How the data were processed

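RNA-seq was analysed for 15 libraries in 5 groups of 3. According to the labels and the study's methods, the authors used fastp for trimming, HISAT2 for alignment (mm9) and featureCounts for counting, and deposited raw counts per Entrez gene number without normalization. The study's methods name a directional library kit and the labels one without that word. The strand setting of the counting and the treatment of reads that match several places are not given in the sources used here, so reads of overlapping genes or near-identical copies could be shared or lost. Symbols came from a RefSeq table (GRCm38.p6) for 24191 of 26301 gene numbers, and coordinates, exon lengths and overlaps from GENCODE M1, which is built on NCBIM37 (the mm9 assembly). Copies of the members' longest coding transcripts (at least 95% identity over 30% of the transcript) were searched in mm9 with minimap2.

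Counts were tested with edgeR 4.0.16 in R 4.3.3 (TMM, filterByExpr with a minimum count of 10, robust quasi-likelihood F test, Benjamini-Hochberg over all genes tested, threshold 0.05), in a separate fit for each set (knockdown, 6 libraries; rescue, 9 libraries). Each SE is the absolute log2 fold change divided by the square root of F. The edgeR fits of the 4 comparisons were tested on simulated data, but not the sum of changes, the ratios, the DESeq2 fits or the search for copies. The members, lists and motifs were chosen with earlier results of these data known. Values in every library are given for the 16 members with the largest changes among those called with a log2 change of 0.3 or more in size, of other pathway genes at most 4 called genes per direction are named (1 gene that this rule names is not reported here), and the windows shown are those of the 4 members with the largest changes. Alternatives were RLE size factors, DESeq2 1.42.0, no filter or 10 counts in every library, the legacy method, a threshold of 0.01, all 15 libraries or only the groups compared in one fit, a replicate block, and leaving out single libraries. The sum of both changes and the ratios were added after the data were seen. At these depths a count of 0 allows up to 0.118 to 0.262 CPM per library (3 counts of the total, counting error only).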

Additional observations from a re-analysis of the deposited data

How the results depend on the processing

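On knockdown, 23 to 26 members were lower and 5 to 6 higher under every alternative. With JMJD1A(WT) against LacZ, 4 to 5 were higher throughout, while the count of lower members, 1 in the report, was 0 with an adjusted p under 0.01 or with DESeq2, 2 with no filter on low counts, the legacy method, all 15 libraries or only the 2 groups in the fit, and 0 to 2 with one library left out. For the mutant against the wild type, 14 members were lower in the report and 9 to 14 with one library left out, the lowest without JMJD1A(H1122A) replicate 1, and 2 to 3 were higher. For the mutant against LacZ, 3 were lower in the report, 1 at an adjusted p under 0.01, and 1 to 5 with one library left out (1 without JMJD1A(H1122A) replicate 1 or 2, 5 without replicate 3), and 2 to 3 were higher. The sum of knockdown and return changes was below 0 for 21 to 23 members and above 0 for 5 to 6. Of 61 calls of single members, 46 held under every alternative and 15 were lost under at least 1, and 5 results that were not called passed under at least 1. No direction was reversed. Correlations between the deviations of same-numbered replicates of different groups were from -0.044 to 0.054, which gave no sign of a pairing but cannot exclude one. The labels number the replicates without saying whether the numbers mark a pairing. With the replicate block, 2 members were lower with JMJD1A(WT) and 5 lower with the mutant than with LacZ. It added calls for Pck2 with JMJD1A(WT) (adjusted p = 0.0205) and for Slc25a10 (0.0472) and Fh1 (0.038) with the mutant against LacZ, and on knockdown Sdha (0.0723) and Sdhb (0.0598) were lost, while the other counts stayed within 1.5 times those of the report. The causes of these differences were not tested. The SE were widest for Pdp2 and Pdk2, which had the lowest levels of the members tested, and the part of depth in this was not tested.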
